A study of Mus musculus with 12 samples.

Results

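The Cre driver of this study sits in Emx1, and the 35 Mb of chromosome 6 around that gene (65 to 100 Mb, mm10) were examined for H3K27ac, the acetylation of histone H3 at lysine 27. Peaks of the 6 deposited lists that overlapped or touched were merged into 85918 regions. Of these, 1202 lie in the stretch, 3586 on the rest of chromosome 6 and 79484 on the other autosomes, and 0 regions cross the borders of the stretch. The choice of members used position only, and no measured difference between genotypes.

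The study compared cortex of mouse embryos at E15.5 in 3 WT and 3 cKO libraries. WT embryos were Prdm16 flox/flox without Cre, and cKO embryos carried Emx1Ires-Cre on Prdm16 flox/flox, so both groups were homozygous for the floxed allele. Lysate of the whole cortex was digested with micrococcal nuclease under native conditions and precipitated with the H3K27ac antibody ab4729. Replicates 1 and 2 of both genotypes share a library identifier (set A, 4 libraries) and replicate 3 of both genotypes has another (set B, 2 libraries). Emx1Ires-Cre is a knock-in at Emx1 that drives recombination in progenitors of the dorsal forebrain, so cells of other origin in the lysate keep Prdm16. Fewer cells of a type and less mark per cell cannot be told apart in such a lysate. All 3 cKO samples and no WT sample carry the driver allele, and sequence linked to it on chromosome 6 travels with it. In this stretch the loss of Prdm16 and the driver allele with its linked sequence cannot be told apart. The strain background is not given in the sources used here, and the labels do not say whether each replicate was its own embryo or litter. The p-values thus reflect the spread between the 6 libraries and no more, which may be technical.

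H3K27ac marks active promoters and enhancers and is laid down by the acetyltransferases p300 and CBP. Emx1 encodes a homeobox transcription factor of the dorsal telencephalon, expressed in cortical progenitors and in the excitatory neurons they produce. PRDM16 is a zinc-finger chromatin regulator of cortical radial glia. Cyp26b1, in the same stretch, encodes an enzyme that breaks down retinoic acid.

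The promoters of Emx1 and Cyp26b1 are shown because the first is the driver locus and the second is the only promoter of the stretch overlapped by a region found in all libraries of 1 genotype and in none of the other. Each runs 5′ to 3′ on the gene's strand, from 250 bases before to 50 bases after the gene's start (RefSeq, GRCm38.p6, the assembly behind mm10). Emx1 lies on the plus strand at chr6:85187681-85187980, and capitals mark GGGCGG on either strand, the GC box. Cyp26b1 lies on the minus strand at chr6:84593761-84594060, and capitals mark the 113 bases under the cKO-only region described further on.
Emx1: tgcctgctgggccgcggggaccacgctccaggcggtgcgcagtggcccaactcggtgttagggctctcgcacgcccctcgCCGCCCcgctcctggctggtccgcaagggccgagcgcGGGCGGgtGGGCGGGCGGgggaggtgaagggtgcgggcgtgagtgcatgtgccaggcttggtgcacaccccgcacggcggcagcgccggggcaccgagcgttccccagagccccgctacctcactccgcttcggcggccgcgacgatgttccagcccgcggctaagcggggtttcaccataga
Cyp26b1: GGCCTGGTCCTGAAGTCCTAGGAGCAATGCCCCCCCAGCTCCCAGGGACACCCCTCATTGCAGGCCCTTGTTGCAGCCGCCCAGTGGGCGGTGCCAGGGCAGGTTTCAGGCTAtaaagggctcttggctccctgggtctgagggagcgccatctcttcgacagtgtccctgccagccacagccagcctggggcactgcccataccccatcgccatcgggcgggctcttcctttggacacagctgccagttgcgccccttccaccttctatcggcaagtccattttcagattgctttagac
The Emx1 promoter holds 4 matches to GGGCGG, some of them overlapping, and the Cyp26b1 promoter holds 3. That motif is present on either strand in 35.7% of 32851 promoters of this length. The Emx1 promoter has 37 CG dinucleotides and 74.0% G and C, the Cyp26b1 promoter has 9 and 62.3%, and the median promoter has 7 and 52.7%. TAATTA, the core of many homeobox sites (5.29% of promoters), and AGGTCA, a motif bound by many nuclear receptors (16.3%), have 0 matches in both. Across the stretch, 225 of 260 protein-coding genes matched the promoter table. A region present in all 6 libraries lay over 139 of these promoters (61.8%), and a region of any kind over 147.

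Lists held 48168 (WT replicate 3) to 75563 (WT replicate 2) peaks. Sequencing depth is unknown, since peak lists hold no read counts. Of 11 markers of the excitatory cortical lineage, all had a peak in every library, with a summed covered length of 166 to 239 kb in WT and 197 to 213 kb in cKO. Of 5 markers of ventral forebrain and interneurons, 4 had a peak in every library (35.03 to 44.7 kb in WT, 41.9 to 45.8 kb in cKO), and Gsx2 had none. Microglial and vessel markers had a peak in every library for 2 of 4 (6.58 to 8.23 kb and 6.62 to 7.28 kb), and Alb, Myod1 and Ins2 had none.

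The stretch took nearly the same share of every list. WT libraries had 900, 1050 and 658 peaks in it, or 1.35%, 1.39% and 1.37% of their peaks. cKO libraries had 799, 798 and 762, or 1.35%, 1.36% and 1.39%. The shares overlap between genotypes. The mean share was 1.37% ± 0.0183 (SD, n = 3) in WT and 1.36% ± 0.0183 in cKO, a difference of -0.00491 percentage points (exact permutation test, two-sided, p = 0.7, adjusted p = 0.7 over 2 measures; the smallest p that 3 against 3 allow is 0.1). Within set A the difference was -0.0169 and within set B 0.0190 percentage points. The median peak in the stretch was 903.5, 845.5 and 816 bp wide in WT and 925, 907.5 and 839 bp wide in cKO. These widths overlap too, with means of 855 ± 44.5 and 890.5 ± 45.5 bp (SD, n = 3; exact permutation p = 0.4, adjusted p = 0.7). The difference was 41.8 bp within set A and 23 bp within set B.

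Fewer regions of the stretch were in every library than were missing from at least 1. A peak of every library was found in 552 regions (45.9%, against 46.4% in the series), and 266 regions (22.1%, against 21.2%) were found in a single library. Of the single-library regions, 146 came from WT replicate 2, the longest list, and 2 from WT replicate 3, the shortest. Regions in all libraries had a median width of 1622.5 bp, and those of a single library 290 bp.

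A region with a peak in all 3 WT lists and in no cKO list was called WT-only, and the converse cKO-only. In the stretch 7 regions were WT-only (0.582%, exact 95% interval 0.234 to 1.196), beside 0.907% of the regions of the series and 32 of 3586 (0.892%) on the rest of chromosome 6. A further 9 were cKO-only (0.749%, 0.343 to 1.42), beside 0.347% in the series and 15 (0.418%) on the rest of chromosome 6. The intervals cover counting error only, and that of each class includes the share of the series. The other autosomes were cut into 56 stretches of 35 Mb. Their WT-only share ran from 0.231% to 2.39% with a median of 0.978%, and 50 of 56 lay above the Emx1 stretch. Their cKO-only share ran from 0.127% to 0.901% with a median of 0.307%, and 1 of 56 lay above it. At the same coordinates of 14 other autosomes, the WT-only share was higher than around Emx1 in 11 and the cKO-only share in 0. The Emx1 stretch thus stood low among stretches for WT-only and high for cKO-only regions, as a rank and without a test.

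That rank moved with the length of the lists. Every list was next cut to its 48168 peaks of highest -log10 p. The stretch held 876 regions, of which 10 were WT-only (1.14%, series 0.908%) and 11 cKO-only (1.26%, series 0.987%). Only 3 of these WT-only and 4 of these cKO-only regions had that class as deposited. The rest had deposited peaks of the other genotype that the cut removed. Then 18 of 56 other stretches had a higher WT-only share and 14 a higher cKO-only share, and the rest of chromosome 6 had 1.07% and 1.22%. With peaks of -log10 q of at least 5 only, 544 regions were left, with 9 WT-only (1.65%, series 0.946%) and 1 cKO-only (0.184%, series 0.565%), and 4 and 52 of the other stretches were higher. Leaving out WT replicate 3, the shortest list, gave 56 WT-only regions (4.67%, series 5.24%), and leaving out WT replicate 2, the longest, gave 25 cKO-only regions (2.35%, series 1.31%). Within 10 Mb on each side of Emx1, as deposited, 5 of 795 regions were WT-only (0.629%) and 7 were cKO-only (0.881%).

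**Figure D1:**
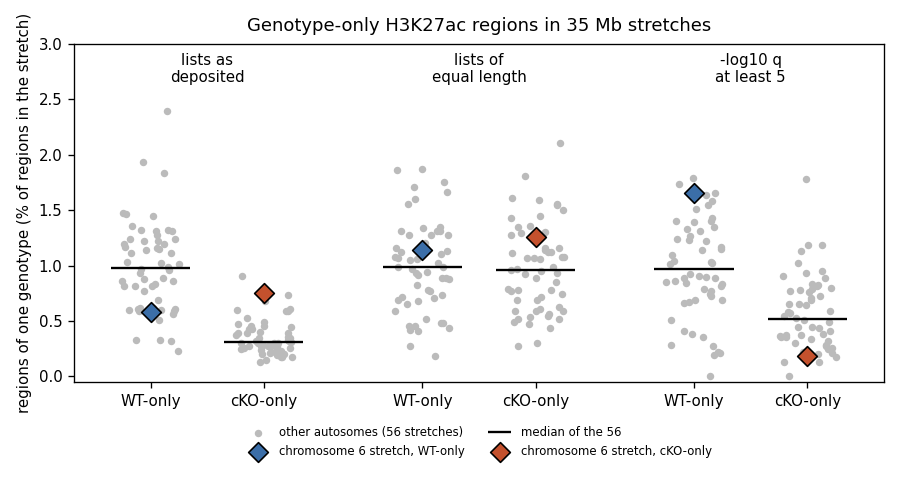
Share of regions that are WT-only or cKO-only (percent, vertical axis) in stretches of 35 Mb, for lists as deposited, lists of equal length and peaks of -log10 q of at least 5. Small points are the 56 stretches of other autosomes, lines are their medians, and the diamond is the stretch around Emx1, which is among the highest for cKO-only regions as deposited (0.749%) and among the lowest with -log10 q of at least 5 (0.184%).

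The 16 regions of a single genotype were weak and lay along the whole stretch, from -18722.7 kb to 14495.9 kb from Emx1. In the library where each was weakest, -log10 q had a median of 2.50 (1.85 to 4.36) for WT-only and 2.38 (1.66 to 3.52) for cKO-only regions. Regions in all 6 libraries had a median of 5.71 (1.60 to 55.8), taken over the weakest of 6 libraries and not of 3. Their median widths were 870 bp for WT-only and 896 bp for cKO-only regions. They lay inside a gene in 4 of 7 and 5 of 9 cases. Of the regions in all libraries 383 of 552 (69.4%) did, and of every region of the stretch 786 of 1202 (65.4%). Within 2 kb of a gene end were 0 of 7 WT-only regions (which allows a share of up to 41.0%, exact interval), 2 of 9 cKO-only regions (22.2%, 2.81 to 60.0) and 162 of 552 shared ones (29.3%). Of every region of the stretch, 207 of 1202 (17.2%) lay within 2 kb of a gene end. The genotype-only counts are of few regions, and no test of them was made.

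Among the WT-only regions, the strongest and narrowest was chr6:85410922-85411131, a site of 210 bp in the gap between Rab11fip5 and Noto, 206.46 kb past Emx1. Its -log10 q was 6.92, 8.17 and 4.36 in the WT libraries, and the peaks were 193, 186 and 161 bp long. The widest, of 1690 bp, was chr6:91222362-91224051 inside Fbln2, the gene of the matrix protein fibulin-2 (-log10 q 5.15, 4.54 and 2.50). A pair lay inside Ctnna2, which encodes the neuronal catenin that links cadherins to actin, at chr6:76964999-76965551 (2.80, 3.77 and 3.67) and chr6:77414896-77415722 (3.52, 3.74 and 2.85). The others were chr6:71935378-71936370 inside Polr1a, a subunit gene of RNA polymerase I, chr6:86328154-86329051 at 36419 bp from Fam136a, and chr6:99700319-99701188 at 5252 bp from the orphan receptor gene Gpr27. In these 3, the weakest library had -log10 q of 1.85 to 2.11.

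Among the cKO-only regions, a pair had Cyp26b1 as the nearest gene. The first, chr6:84593948-84594914, begins 39 bp outside the gene's start-side end and covers part of the promoter printed above, which in its table belongs to a start slightly inside that end. Its -log10 q was 3.52, 4.92 and 3.85 in the cKO libraries. The second, chr6:84391722-84392654, lies 178759 bp away on the far side of the gene (4.12, 2.38 and 2.67). It is in the gap between Cyp26b1 and Dysf, which ends at chr6:84211060. Another pair lay inside Magi1, a scaffold gene of cell junctions, at chr6:93943366-93944056 (1.81, 2.73 and 4.24) and chr6:93956932-93957969 (4.38, 1.66 and 4.92). The rest were chr6:66464660-66465189 at 70031 bp from the spindle checkpoint gene Mad2l1, chr6:70773899-70775207 in the pentose phosphate gene Rpia, chr6:82136055-82136743 at 42955 bp from Eva1a, chr6:87111921-87112816 in D6Ertd527e and chr6:88370432-88370823 in Eefsec, the elongation factor gene for selenocysteine. With lists of equal length, 3 of the 7 WT-only regions (the second in Ctnna2, the one by Noto and the one in Fbln2) and 4 of the 9 cKO-only regions (by Mad2l1, by Eva1a, at the Cyp26b1 promoter and in D6Ertd527e) kept their class. With peaks of -log10 q of at least 5, none of the 16 could keep its class. The weakest library of each was at most 4.36 (WT-only) or 3.52 (cKO-only), so this cut is no check of them. With it, 4 of the 7 and 9 of the 9 had no peak left.

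**Figure D2:**
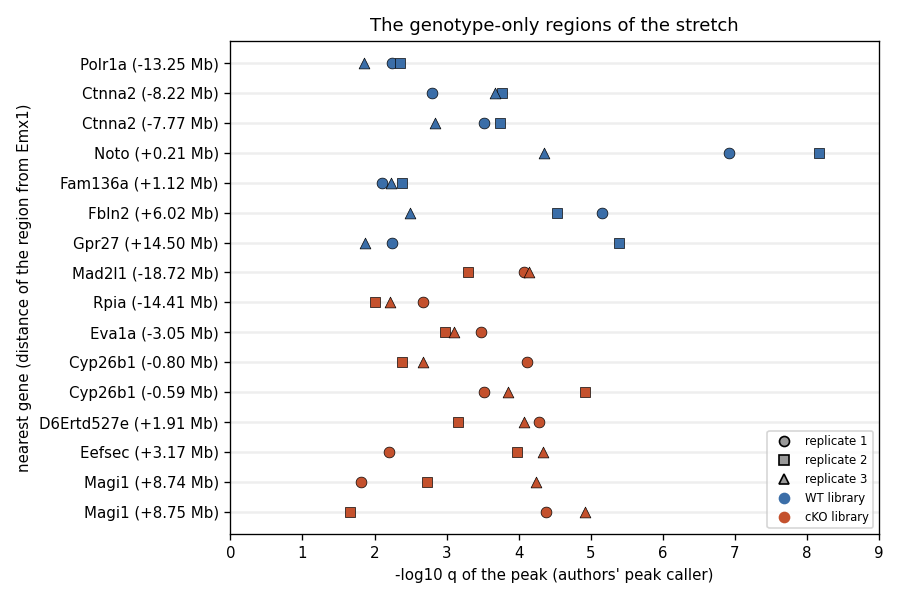
The 16 regions of a single genotype, 1 per row by nearest gene (vertical axis), with -log10 q of the peak in each library (horizontal axis). Each point is 1 library of the genotype that has the peak, and the region by Noto reaches the highest value, 8.17, in WT replicate 2.

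At Emx1 itself the genotypes did not differ detectably. The gene spans chr6:85187931-85204463, and covered length, which counts the bases that peaks occupy in the gene and 20 kb on each side, was scaled so that every library had the same genome total. It was 17981, 19973 and 19800 bp in WT and 18104, 18826 and 20881 bp in cKO, so the groups overlap, with WT replicate 1 lowest and cKO replicate 3 highest. Means (± SD, n = 3) were 19251 ± 1104 bp for WT and 19270 ± 1441 bp for cKO. The log2 difference was 0.00 ± 0.11 (SE, 95% interval -0.24 to 0.24; limma with library set as covariate, adjusted p = 1.00 over 15359 genes). A change within that interval would not have been seen. A change beyond it could be missed too, since the interval is not adjusted for the 15359 genes. The nearby gene Exoc6b, at 0.60 ± 0.13 (SE), was not called.

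The window holds 8 regions, of which 5 were found in all libraries and 0 were WT-only or cKO-only. The region over the start, chr6:85185756-85198160, is 12405 bp long and runs from -2.175 to 10.23 kb of the start. Its main peak was 11075, 9773 and 9617 bp wide in WT and 11063, 9778 and 10895 bp in cKO. It was the widest peak of the stretch in 5 libraries and the second widest in WT replicate 1. The authors' fold enrichment of it was 15.9, 17.1 and 12.1 in WT and 14.995, 15.54 and 13.2 in cKO, with replicate 3 of each genotype the lowest. At the far end of the gene, chr6:85201838-85204435 had 1415, 1912 and 559 bp under peaks in WT and 2358, 2445 and 2167 bp in cKO, scaled, every cKO value above every WT value. Just past the gene, chr6:85205129-85210526 had 2505, 4264 and 3406 bp in WT and 2271, 2224 and 2433 bp in cKO, every cKO value below every WT value. Single regions were not tested. This pair was picked after its values were seen, and the share of all regions that separate in this way was not counted. In the other regions of the window found in all libraries, the genotypes overlapped. A short region between the start region and the gene end, chr6:85200680-85201134, was found in WT replicates 1 and 2 only. The inserted Cre cassette is not part of mm10, so no peak in these lists can lie on it.

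**Figure D3:**
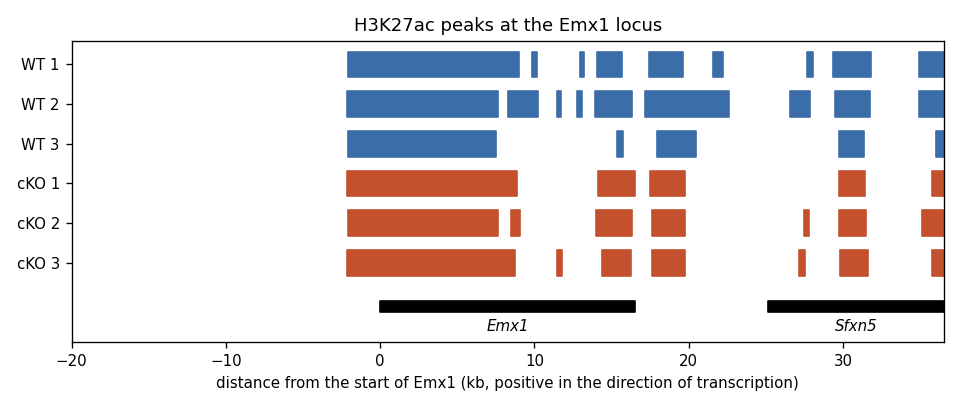
Peaks at Emx1 in the 6 libraries, by distance from the gene's start (kb, horizontal axis), 1 row per library. Bars are peaks, and the bar over the start is 9617 to 11075 bp wide in every library.

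Nor did the genes beside Emx1 pass the test. Of the 9 genes overlapping 250 kb on each side, Emx1 included, limma called 0, with 1 higher and 1 lower at an unadjusted p under 0.05. The background over all genes is 0.69% called and 9.95% at that unadjusted p. Exoc6b, an exocyst subunit gene, had a log2 difference of 0.60 ± 0.13 (limma adjusted p = 0.0517) and Noto one of -0.32 (adjusted p = 0.352). The window of Noto holds the WT-only region chr6:85410922-85411131, which is counted in it. The cKO mean of Noto, 918 bp, lies under the minimum of 1000 bp, so it entered the test through its WT level. Spr, for tetrahydrobiopterin synthesis, stood at 0.06, the sideroflexin gene Sfxn5 at -0.16 and Rab11fip5 at -0.14. Smyd5, Pradc1 and Cct7 lie so close that their windows gave the same value, 0.05. Emx2, the paralog on another chromosome, stood at 0.07 (adjusted p = 0.891), and of 10 dorsal forebrain factor genes elsewhere 0 were called, with log2 differences of -0.11 to 0.14.

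In the whole stretch, limma called 2 of 194 genes tested, Cyp26b1 as higher (0.371% of all genes tested were called higher) and Hpgds as lower in cKO (0.319%). The stretch has 260 genes, and those with a mean under 1000 bp were not tested. At an unadjusted p under 0.05, 9 were higher and 8 lower. Over all 15359 genes tested, 869 were higher and 659 lower at that p (9.95% in both directions together). The median log2 difference was 0.05 in the stretch and 0.05 over all genes tested. The scaled lengths of the 2 genotypes did not overlap, with cKO above, in 14 genes (7.22%, against 7.08% of all genes tested). With cKO below, they did not overlap in 15 genes (7.73%, against 4.54%).

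Cyp26b1 (chr6:84571414-84593908) had 914, 1852 and 217 bp under peaks in WT and 3541, 2972 and 4131 bp in cKO. Every cKO library lay above every WT library, and set B had both the lowest WT and the highest cKO value. The means were 994 ± 820 and 3548 ± 579 bp (SD, n = 3), a log2 difference of 1.59 ± 0.27 (SE, on covered length plus 500 bp; 95% interval 1.00 to 2.18; limma adjusted p = 0.0234). The cKO-only region at the promoter lies in this window and is counted in it, with 643, 509 and 1024 bp, scaled, in the cKO libraries. Inside the gene, chr6:84587328-84589377, 4.531 to 6.581 kb past the start, had peaks in all libraries, with 664, 1414 and 217 bp in WT and 2046, 1924 and 1913 bp in cKO, scaled. There too every cKO library lay above every WT library, with WT replicate 2 the nearest. Within set A the log2 difference was 1.06 and not called (limma adjusted p = 0.204). Without WT replicate 2 the adjusted p was 0.0540. Leaving out WT replicate 3 (0.196) or cKO replicate 3 (0.188) nearly repeats the set A fit, since the covariate absorbs the remaining library of set B. Lists of equal length gave 2.43 (adjusted p = 0.0148). Scaling to the total over gene windows gave 1.56 (adjusted p = 0.0907). The WT mean alone lies under the minimum of 1000 bp, so the gene entered the test through its cKO level, and without the minimum it was not called (adjusted p = 0.568, with 0 genes called in the genome). The gene was called in 8 of 16 alternatives in which it was tested, and the log2 difference was positive in all 16 (0.92 to 2.43). Alternatives share libraries, so such counts, here and below, are not of independent fits.

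**Figure D4:**
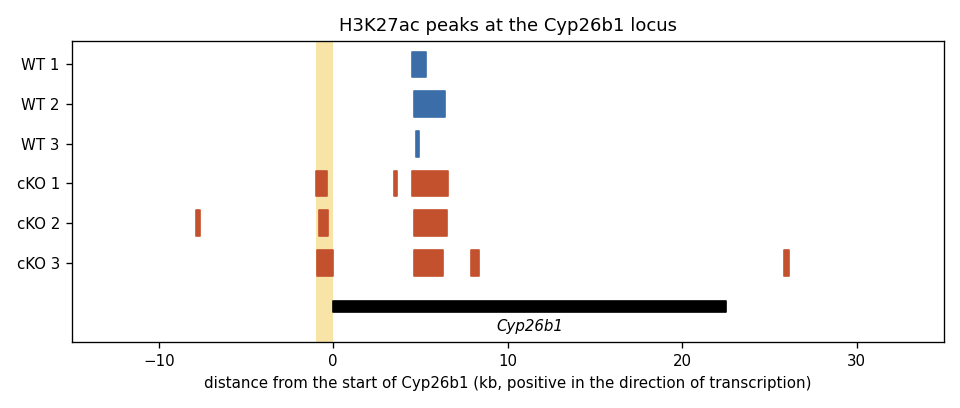
Peaks at Cyp26b1 in the 6 libraries, by distance from the gene's start in its direction of transcription (kb, horizontal axis), 1 row per library. The 3 cKO libraries have a peak just before the start, and no WT library has one there.

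Hpgds (chr6:65117293-65144981), which encodes the haematopoietic prostaglandin D synthase, lies in the first 0.15 Mb of the stretch. It had 1134, 2334 and 1718 bp in WT and 656, 498 and 618 bp in cKO, with every cKO library below every WT library. The means were 1728 ± 600 and 591 ± 82.2 bp (SD, n = 3), and the log2 difference was -0.998 ± 0.17 (limma adjusted p = 0.0234). In the cKO libraries all of that length came from chr6:65137098-65138377, which had a peak in all 6 libraries. In WT, further peaks at chr6:65126397-65126630, chr6:65140468-65140959, chr6:65144640-65145240 and chr6:65159512-65160016 were found in 1 or 2 libraries each. Within set A the value was -1.03 (adjusted p = 0.226), and with gene-window scaling -1.01 (adjusted p = 0.0672). It was not called without WT replicate 3 (0.218) or cKO replicate 3 (0.211), fits that nearly repeat set A alone. Without WT replicate 2 its mean was too low to be tested. So it was with lists of equal length, with -log10 q of at least 5 and with 2 kb around both gene ends. The cKO mean lies under the minimum of 1000 bp, so the gene entered the test through its WT level, and without the minimum it was not called (adjusted p = 0.498). It was called in 7 of the 14 alternatives in which it was tested, with log2 differences of -1.36 to -0.21, the smallest with 100 kb on each side of the gene (adjusted p = 0.396).

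Between Cyp26b1 and Emx1, Exoc6b (chr6:84618486-85070258) had 4017, 4889 and 3657 bp in WT and 6285, 6344 and 7085 bp in cKO, without overlap, and was not called. Its region chr6:84746146-84747932 had 0, 364 and 0 bp under peaks in WT and 1597, 1814 and 1979 bp in cKO, scaled. That region became cKO-only with lists of equal length, as did chr6:84465859-84466923, at 104490 bp from Cyp26b1 on the other side. As deposited, the latter had peaks of 263 and 407 bp in WT replicates 1 and 2, which the cut removed. Exoc6b was called in 4 of 18 alternatives, fits in which 1.09% to 1.51% of all genes were called. Its log2 difference ran from -0.02 with -log10 q of at least 5 (limma adjusted p = 0.989) to 1.03 with lists of equal length (0.152). With 2 kb around both gene ends it was 0.07 (0.954). The remaining genes of smallest p were not called either. On the higher side they were Uroc1, for histidine breakdown, at 0.45 (adjusted p = 0.126), its neighbour Zxdc at 0.41 (0.182), whose window overlaps that of Uroc1, and the germ cell factor gene Figla at 0.35 (0.254). On the lower side they were 1810020O05Rik at -0.52 (0.0713), Fbln2 at -0.40 (0.206), Noto, and Antxr1 at -0.26 (0.417). The windows of Fbln2 and Noto each hold a WT-only region, which is counted in them. With lists of equal length, 1810020O05Rik was called (-0.78, adjusted p = 0.0230), where 0.384% of all genes were. It was called in 2 of 17 alternatives. It stood at 0.05 (0.959) with -log10 q of at least 5 and at -0.14 (0.572) with 100 kb on each side.

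A list of 20 genes of the stretch, drawn up as cortical genes with earlier results of these data known, had 19 tested members. Of these, 1 (Cyp26b1) was called higher and 0 lower. Their median log2 difference was 0.09, with 15 positive (78.9%) and 4 negative, beside a median of 0.05 and 65.3% positive over all genes tested, of which 0.371% were called higher and 0.319% lower. Foxp1, a transcription factor gene of cortical neurons, covered 40958 ± 6103 bp (mean ± SD, n = 3) in WT against 48200 ± 951 bp in cKO, a log2 difference of 0.24 (limma adjusted p = 0.513). Tgfa, a ligand of the EGF receptor, stood at -0.28 (0.524), the transcription factor gene Mitf at 0.22 (0.567), the substance P receptor gene Tacr1 at 0.24 (0.585) and the planar polarity gene Prickle2 at 0.22 (0.599). None of these 5 passed the test. The untested member, Gata2, averaged 784 bp in the WT and 986 bp in the cKO libraries.

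The stretch as a whole had 0.944, 0.962 and 0.927 Mb under peaks in WT and 0.966, 0.956 and 0.952 Mb in cKO, scaled. The ranges overlap, and the means were 0.944 ± 0.0175 and 0.958 ± 0.00690 Mb (SD, n = 3). The log2 difference was 0.02 ± 0.02 (SE, 95% interval -0.01 to 0.05; limma across 57 stretches, adjusted p = 0.413), while 5 of the 57 stretches (8.77%) were called. The other 56 had differences of -0.12 to 0.06 with a median of -0.01, and 13 of them were higher.

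In bins of 5 Mb, limma called 0 of 481 across the autosomes (0%), and 106 (22%) had an unadjusted p under 0.05, among them 3 of the 7 in the stretch. The bin that holds Emx1, 85 to 90 Mb, had a log2 difference of -0.00 (adjusted p = 0.921). The bin before it, 80 to 85 Mb, which holds Cyp26b1, had 114, 117 and 118 kb in WT and 125, 135 and 129 kb in cKO, without overlap (0.15 ± 0.04, adjusted p = 0.0896). The bin at 75 to 80 Mb, which holds Ctnna2, had 43.1, 43.8 and 39.8 kb in WT and 37.6, 38.1 and 37.6 kb in cKO, also without overlap (-0.16 ± 0.03, adjusted p = 0.0640). In set A alone, where 6.03% of all bins were called, that bin was called (-0.20, adjusted p = 0.0388). The other 4 bins stood at -0.09 (65 to 70 Mb), 0.06 (70 to 75 Mb), -0.02 (90 to 95 Mb) and 0.05 (95 to 100 Mb). Of these, the bin at 65 to 70 Mb did not overlap either, with 33.3, 35.2 and 35.7 kb in WT and 33.0, 32.9 and 32.2 kb in cKO. Bins of chromosome 6 outside the stretch separated as well, such as 60 to 65 Mb (-0.21) and 125 to 130 Mb (0.17). The share of all bins without overlap was not counted. Over all bins the 5th to 95th percentiles of the difference were -0.16 and 0.10, a span that holds 6 of the 7 bins of the stretch, the bin at 80 to 85 Mb being above it. The values did not run in 1 direction with distance from Emx1.

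**Figure D5:**
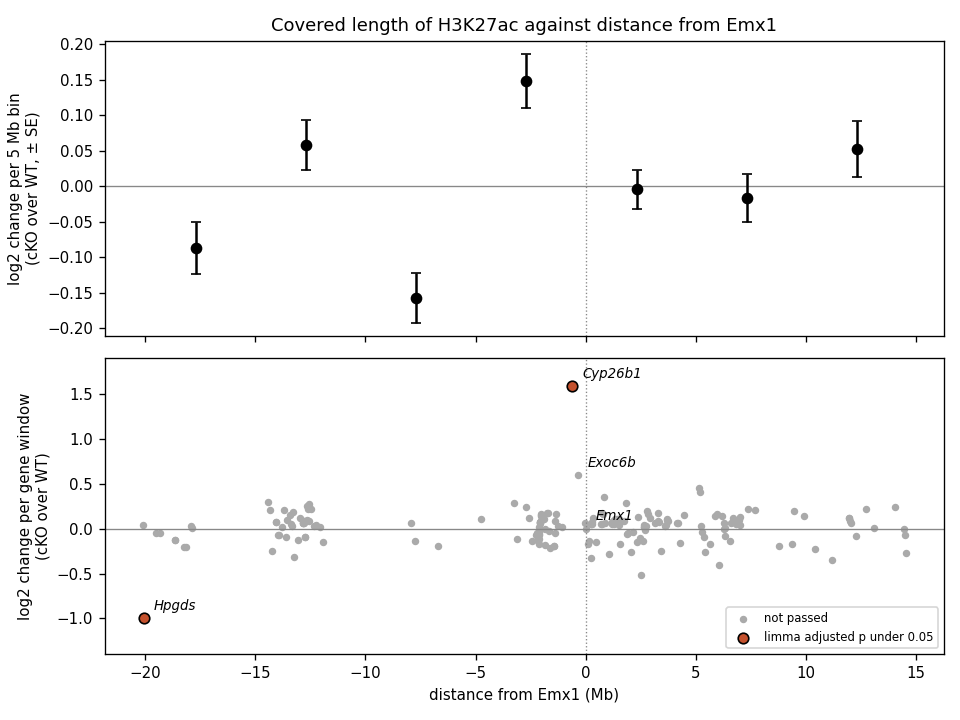
Log2 difference in scaled covered length, cKO over WT, against distance from Emx1 (Mb, horizontal axis), for the 7 bins of 5 Mb in the stretch (upper panel, bars are SE) and for its tested genes (lower panel). The bin with Emx1 lies at -0.00, and Cyp26b1 (1.59) and Hpgds (-0.998) are the 2 genes called.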

How the data were processed

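H3K27ac was profiled in 3 WT and 3 cKO cortex libraries, and 6 input libraries were not analysed here. The submitters' processing notes list MACS2 2.1.1, Bowtie2 2.2.8, cutadapt, FastQC and mm10; for parameters, use of input and pooling: not given in the sources used here. Each deposited broad peak list holds, for every peak, a score for display, a ratio (fold enrichment) and the -log10 of p and of q, as the authors' peak caller wrote them; the score was not used. The lowest -log10 q per list was 1.31 to 1.39. The authors' fold and -log10 values served only to describe, rank or filter peaks within a list.

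Genes came from RefSeq (GRCm38.p6). Covered bases per gene (body plus 20 kb), 5 Mb bin or 35 Mb stretch were scaled to the same genome total per library and tested as log2(bases + 500) with limma 3.58.1 (R 4.3.3), library set as covariate and Benjamini-Hochberg adjustment over all features, calling at 0.05. Genes with a mean under 1000 bp were not tested. Covered length cannot show a change of signal within a peak. Per-library measures had two-sided exact permutation tests. Other computations used Python 3.11.15. The fits were checked on simulated data. Shares carry exact (Clopper-Pearson) 95% intervals.

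The stretch, gene lists and tests were chosen with earlier results of these data known. Named genes are Emx1, genes within 250 kb of it, called genes, the 5 smallest p per direction and the 6 smallest p of the cortical list. Regions and loci singled out beyond the genotype-only rule were chosen after their values were seen.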

Additional observations from a re-analysis of the deposited data

How the results depend on the processing

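Counts of genotype-only regions depended on which lists entered. WT-only regions numbered 76 in set A alone and 10 to 56 with a list left out (56 without WT replicate 3, 12 without WT replicate 1, cKO replicate 1 or cKO replicate 2). cKO-only regions numbered 1 with -log10 q of at least 5, 16 in set A alone and 10 to 25 with a list left out (25 without WT replicate 2, 15 without cKO replicate 3). Fewer lists make both classes easier to enter. Over 12 alternatives the cKO-only share lay above that of the series in 11 (below it with -log10 q of at least 5), and the WT-only share below it in 10 (above it with lists of equal length and with -log10 q of at least 5).

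The log2 difference of the stretch was -0.0075 with -log10 q of at least 5 and -0.0902 without scaling, and 0.0118 to 0.0308 with a library left out. Bins called in the stretch were 1 in set A alone and 0 to 1 with a library left out, the 1 without WT replicate 3 or without cKO replicate 3. In each of these 3 fits 6.03% of all bins were called, and with lists of equal length 6.24% were, with 0 in the stretch. Genes called in the stretch were 0 with -log10 q of at least 5, in set A alone, without scaling, without a filter, with gene-window scaling (42 genes over the genome, 0.274%, against 106) and with 2 kb around both gene ends, 1 with a pseudocount of 100 bp, and 0 to 4 with a library left out. The highest counts were 4 without cKO replicate 2 (1.48% of all genes called) and 3 without cKO replicate 1 (1.51%). They were 0 without WT replicate 2, WT replicate 3 or cKO replicate 3. Without either replicate 3 the covariate absorbs the remaining library of set B. The cause of the other changes was not tested.

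Emx1, never called in 18 alternatives (adjusted p 0.670 to 1.00), stood at -0.0636 with -log10 q of at least 5, -0.0369 in set A alone, -0.109 without scaling, -0.0270 with gene-window scaling, -0.0734 with 100 kb on each side, 0.256 with 2 kb around both gene ends, 0.114 with lists of equal length, and -0.0369 to 0.0532 with a library left out. The difference in peak share was -0.0151 to 0.00501 percentage points with a library left out. The difference in median width was -21.7 bp with -log10 q of at least 5, -37.5 bp with lists of equal length, and 16 to 61.2 bp with a library left out.

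Deviations of same-numbered samples correlated at 0.132, 0.0629 and 0.261. The same number was the best partner for WT replicates 1 and 3, but WT replicate 2 correlated best with cKO replicate 1 (0.167). As not every number matched, the numbers were not taken as pairs. With the replicate number as a block, 3 genes were called (Exoc6b added, adjusted p = 0.0321) where 1.09% of all genes were, against 0.69%, 0 bins were called, the stretch stood at 0.02 (adjusted p = 0.474) and Emx1 at 0.00.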
